A study of Drosophila melanogaster with 4 samples.

Results

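The broad Sfmbt domains of the large autosomal arms are the 236 regions of 2L, 2R, 3L and 3R that the combined list of both ChIP replicates gives as 1 enriched cluster of at least 6000 bp. They were chosen by that width and by an overlap of at least 1 bp with a cluster in each replicate's own list. The overlap removed none, since all 236 clusters of this width on these arms met it. They are 236 of the 8434 clusters of the combined list, and 5.48% of the 4310 clusters on these 4 arms that overlap a cluster in both replicates, called reproducible here. The other 4074 are called narrower clusters.

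The clusters come from chromatin immunoprecipitation and sequencing (ChIP-seq) with the antibody Q2642 against Sfmbt (labelled dSFMBT) in head nuclei of mixed adult flies of the wild-type Oregon-R strain of Drosophila melanogaster. There were 2 ChIP samples and 2 input chromatin samples, all from wild-type flies, and each input served 1 ChIP. Each cluster has a first and a last base in FlyBase release 5 and 1 score from the authors. No label names the unit of the score, which was taken as log2 from the values themselves. Read counts are not part of the lists, which leaves the depth of each sample unknown. Nothing in the labels ties the ChIP samples to separate fly collections, so differences between replicates may be purely technical.

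Sfmbt is a Polycomb group protein with MBT repeats, which bind histone tails carrying low degrees of lysine methylation. Together with the DNA-binding protein Pho it forms the Pho repressive complex, which binds Polycomb response elements, the short DNA elements from which the other Polycomb complexes are recruited in flies. The histone mark laid down by those complexes, trimethylated lysine 27 of histone H3, spreads over whole genes and gene clusters, whereas factors that bind the elements themselves are mostly seen as narrow peaks.

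Width chose these domains, and the scores come from the same lists, so their widths, scores and replicate values are given as a description, with no test. The genes under them are not named here, since the available gene annotation follows release 6 and positions were not carried between releases.

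Most broad domains were only modestly wider than the minimum, with a short tail of very wide ones. Their median width was 7380 bp (quartiles 6569 and 8834 bp), against 2495 bp (quartiles 2163 and 3363 bp) for the narrower clusters. Of the 236, 147 were under 8000 bp, 49 were 8000 to under 10000 bp, 29 were 10000 to under 15000 bp and 11 were wider still. The minimum width fell within a continuous range. The narrowest domains were 6011, 6023 and 6023 bp wide, with combined scores of 0.61, 0.68 and 1.38, and the widest clusters outside the set were 5995, 5995 and 5991 bp wide, with combined scores of 0.85, 1.17 and 0.77. Together the domains spanned 1997926 bp. They took up 2.07% of the 4 arms and 14.5% of the length of all reproducible clusters there.

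The domains had intermediate to high scores, and the highest scores belonged to narrower clusters. The median combined score was 1.00 (quartiles 0.80 and 1.16, range 0.50 to 1.75) in broad domains and 0.72 (quartiles 0.53 and 0.96, range 0.16 to 2.60) in narrower clusters. Each replicate's own scores had the same order, with medians of 1.15 in domains and 0.79 in narrower clusters in replicate 1, and of 1.09 in domains and 0.74 in narrower clusters in replicate 2. A replicate's score is the highest among its overlapping clusters, which favours domains. More than 1 cluster overlapped 37.7% of domains and 2.21% of narrower clusters in replicate 1, and 44.5% and 2.55% in replicate 2. Of the domains, 199 (84.3%) scored above the median of the narrower clusters, where 51.9% of all reproducible clusters did. Domains made up 117 of the 1000 highest combined scores (11.7%), where they are 5.48% of the clusters, and 6 of the 100 highest, close to that share. The highest-scoring domain ranked 57th, so that 56 narrower clusters scored above every domain. At the bottom, 851 narrower clusters (20.9%) scored below the lowest domain.

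Scores were higher in wider clusters up to about 10000 bp. The median combined score was 0.33 in clusters under 2000 bp, 0.69 at 2000 to under 3000 bp, 0.83 at 3000 to under 4000 bp and 0.87 at 4000 to under 6000 bp. Among the domains it was 0.92 under 8000 bp, 1.12 at 8000 to under 10000 bp and 1.05 at 10000 bp and above. Across the 236 domains Spearman's rho between width and combined score was 0.299, and across the 4074 narrower clusters it was 0.515. Clusters share their libraries, and a wider cluster has more positions from which a score could be drawn.

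**Figure D1:**
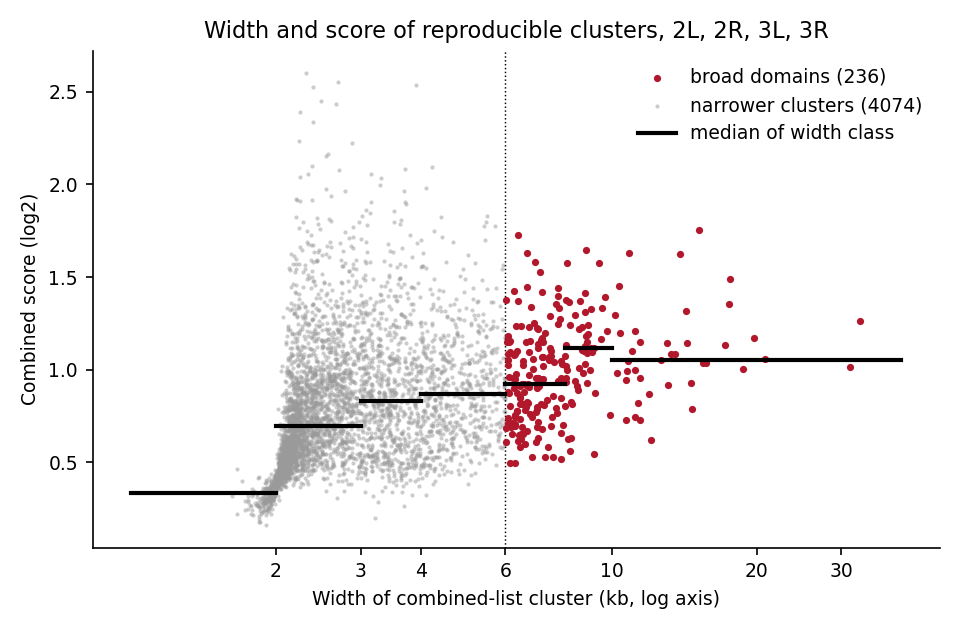
Width (kb, log axis) against combined score (log2) of the 4310 reproducible clusters on 2L, 2R, 3L and 3R. Each point is 1 cluster, the dotted line marks the minimum width and black bars mark the median of each width class. The broad domains lie between scores of 0.50 and 1.75, while narrower clusters reach 2.60.

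The 5 highest-scoring domains lay on 2L, 3L and 3R. They were picked by the score of the combined list of both replicates, so high scores in each replicate are not independent of that choice. The highest, at 11998428 to 12013580 on 2L, was 15153 bp wide and had scores of 1.94 for replicate 1 and 1.78 for replicate 2 (SD 0.11, n = 2). Both replicates split it, and their gaps overlapped. Replicate 1 had a cluster of 2125 bp scoring 0.66 and then 1 of 12718 bp scoring 1.94, and replicate 2 had a cluster of 2245 bp scoring 0.86 and then 1 of 12716 bp scoring 1.78. The next domain of 2L, at 9565386 to 9571768, was 6383 bp wide, with scores of 1.83 for replicate 1 and 1.69 for replicate 2. On 3L the domain at 14747285 to 14756131 had 1.60 for replicate 1 and 1.72 for replicate 2. On 3R the domain at 2910464 to 2921336 had 1.81 for replicate 1 and 1.66 for replicate 2, and that at 27043124 to 27049777 had 1.65 for replicate 1 and 1.64 for replicate 2. The 3R domain at 2910464 was 2 clusters in replicate 1 and 1 in replicate 2, and the 3 others after the first were a single cluster in both.

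The 5 lowest-scoring domains were 6135 to 7824 bp wide and 3 of them lay on 3L. Replicate 1 covered 22.4 to 79.0% of them and replicate 2 covered 38.6 to 88.1%. The lowest, at 20176003 to 20182297 on 3L, had scores of 0.55 for replicate 1 and 0.47 for replicate 2, and that at 20818153 to 20825976 had 0.74 for replicate 1 and 0.58 for replicate 2, with only 38.6% of its length inside replicate 2's cluster. The third of them on 3L, at 23334852 to 23342099, had 0.51 for replicate 1 and 0.78 for replicate 2. Replicate 1 covered 22.4% of it with 1 cluster of 1627 bp, and replicate 2 covered 88.1%. The remaining 2 were at 7988993 to 7995127 on 2L (0.60 for replicate 1, 0.69 for replicate 2) and 17490434 to 17497979 on 2R (0.63 for replicate 1, 0.64 for replicate 2), and each was 2 clusters in both replicates.

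Most domains were overlapped by 1 cluster in either replicate, and the rest by 2 to 5. A lone cluster overlapped 147 of 236 in replicate 1 (62.3%, 95% exact binomial interval 55.8 to 68.5%) and 131 in replicate 2 (55.5%, interval 48.9 to 62.0%). That cluster need not fill the domain. It covered a median of 95.3% in replicate 1 (lowest 22.4%) and 93.7% in replicate 2 (lowest 38.6%). The intervals cover counting error only. At 101 domains both replicates had 1 cluster (42.8%), and both split 59 (25.0%). Replicate 1 alone split 30, and replicate 2 alone split 46. Splitting was rare elsewhere. Replicate 1 split 89 domains (37.7%), where 4.15% of all reproducible clusters of the 4 arms were split, and replicate 2 split 105 (44.5%), where 4.85% were. Wider clusters have more room for a break, and the share split was higher in each wider class. In replicate 1 it was 12.5% at 4000 to under 6000 bp, 27.2% in domains under 8000 bp, 40.8% at 8000 to under 10000 bp and 72.5% at 10000 bp and above. In replicate 2 these shares were 14.8%, 36.7%, 51.0% and 65.0%.

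**Figure D2:**
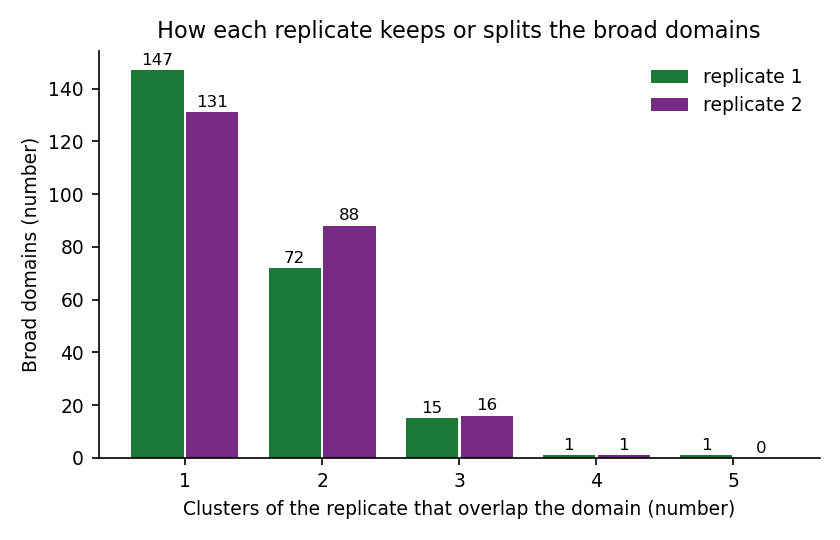
Number of broad domains (vertical axis) by how many clusters of a replicate overlap the domain (horizontal axis), with replicate 1 in green and replicate 2 in purple. A single cluster is the most frequent case in both, with 147 and 131 domains, and 17 domains in each have 3 or more.

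The breaks were short. Replicate 1 had 109 gaps between its clusters inside domains, with a median of 324 bp (quartiles 127 and 689 bp, longest 2991 bp). Replicate 2 had 123, with a median of 372 bp (quartiles 129 and 803 bp, longest 3609 bp). Gaps under 500 bp numbered 72 in replicate 1 and 75 in replicate 2. Many breaks recurred in the other replicate. Of the gaps of replicate 1, 52 (47.7%) overlapped a gap of replicate 2, and of those of replicate 2, 53 (43.1%) overlapped a gap of replicate 1. These shared gaps lay in 48 domains. Within split domains, the highest-scoring cluster exceeded the lowest by a median of 0.45 in the 89 domains split in replicate 1 and 0.41 in the 105 split in replicate 2. The widest cluster was also the highest-scoring in 70 of 89 split domains of replicate 1 and 79 of 105 of replicate 2. In 56 of the 59 domains split in both, the highest-scoring clusters of the replicates overlapped. Of these 59, 35 had 2 clusters in each replicate, which leaves few ways for the highest-scoring clusters to lie apart. Neither this share nor that of shared gaps is given here for narrower clusters, so they describe the domains only.

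Replicate clusters filled most of each domain. Both replicates covered 79.6% of the summed length, replicate 1 alone 6.49%, replicate 2 alone 7.81% and neither 6.13%. The median domain was covered to 92.6% by replicate 1 and 91.0% by replicate 2, and 7 domains in replicate 1 and 3 in replicate 2 were covered to less than 50%. Coverage of at least 90% in both replicates was met by 89 domains (37.7%), fewer than the 51.8% of all reproducible clusters. At the outer ends, the first cluster of replicate 1 began a median of 80 bp inside the domain and that of replicate 2 a median of 112 bp inside. Both ends lay within 500 bp in both replicates in 103 domains (43.6%). The share among all reproducible clusters is not given here, so this is no trait particular to domains.

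Neither replicate alone had as many wide clusters as the combined list. A cluster of at least 6000 bp lay in 123 domains in replicate 1 and in 109 in replicate 2, in 83 domains in both (35.2%) and in 87 in neither (36.9%). In their own lists, replicate 1 had 126 clusters of this width on the 4 arms and replicate 2 had 112, and 124 of those of replicate 1 and 111 of those of replicate 2 overlapped a domain. The widest was 17079 bp in replicate 1 and 18661 bp in replicate 2, against 32802 bp in the combined list.

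The widest domains show how the lists relate. That of 3R, at 12045877 to 12078678, was 32802 bp wide with a combined score of 1.26. Replicate 1 covered 96.3% of it with 3 clusters, 13061 bp scoring 1.01, 4450 bp scoring 1.56 and 14083 bp scoring 1.63. Replicate 2 covered 77.1% with 4 clusters, 6595 bp scoring 1.14, 1855 bp scoring 0.54, 11550 bp scoring 1.47 and 5301 bp scoring 1.18. The highest-scoring clusters of the replicates overlapped. The widest of 2R, at 1005257 to 1036523, was 31267 bp wide with a combined score of 1.01, and it had 5 clusters in replicate 1 and 3 in replicate 2. Replicate 1 covered 74.1% of it, with its highest score of 1.51 in the last cluster, and replicate 2 covered 94.7%, with its highest score of 1.20 also in the last.

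On 2L the widest domain, at 19008071 to 19028861, was 20791 bp wide and nearly filled in both replicates, at 97.8% in replicate 1 and 97.6% in replicate 2, but broken at different places. Replicate 1 had 14799 bp scoring 1.24 and then 5531 bp scoring 0.91, and replicate 2 had 2346 bp scoring 1.53 and then 17937 bp scoring 0.88. On 3L no domain exceeded 11017 bp. That one, at 23082860 to 23093876, had scores of 1.15 for replicate 1 and 1.52 for replicate 2 (SD 0.26, n = 2), with 2 clusters in each. The domain at 5428112 to 5446895 on 2R, 18784 bp wide, was 1 cluster of 18661 bp scoring 0.90 in replicate 2 and 3 clusters scoring 1.28, 0.67 and 1.11 in replicate 1. A domain of 17592 bp on 2R at 17585748 to 17603339, singled out after its values were seen, was a single cluster in both, of 17079 bp scoring 1.56 in replicate 1 and 16920 bp scoring 1.44 in replicate 2. The other domains among the 3 widest of 2L, 3L and 3R and the 5 with most clusters varied in layout. At 22956710 to 22974249 on 2L each replicate had 1 cluster, of 12198 bp scoring 1.46 in replicate 1 and 16621 bp scoring 1.50 in replicate 2. At 4996442 to 5011922 on 2L each had 2, with 97.4% covered by replicate 1 and 94.9% by replicate 2. On 3L the domain at 9452800 to 9463565 had 2 clusters in each replicate, the first scoring higher in both, and that at 9682291 to 9692554 had 1 in replicate 1 and 2 in replicate 2. The 3R domain at 8264207 to 8278892 had 3 clusters in replicate 1 and 2 in replicate 2. On 2R the domain at 9840574 to 9853218 had 4 clusters in replicate 1, of which the last scored highest at 1.60, and 3 in replicate 2, of which the last scored highest at 1.16. That at 1577895 to 1591432 had 3 in each, with the last again highest, at 1.31 in replicate 1 and 1.35 in replicate 2. On 3R a domain of 15680 bp at 5901554 to 5917233 was followed after 61 bp by another of 6510 bp, and 1 cluster of replicate 1 reached across that gap into both.

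**Figure D3:**
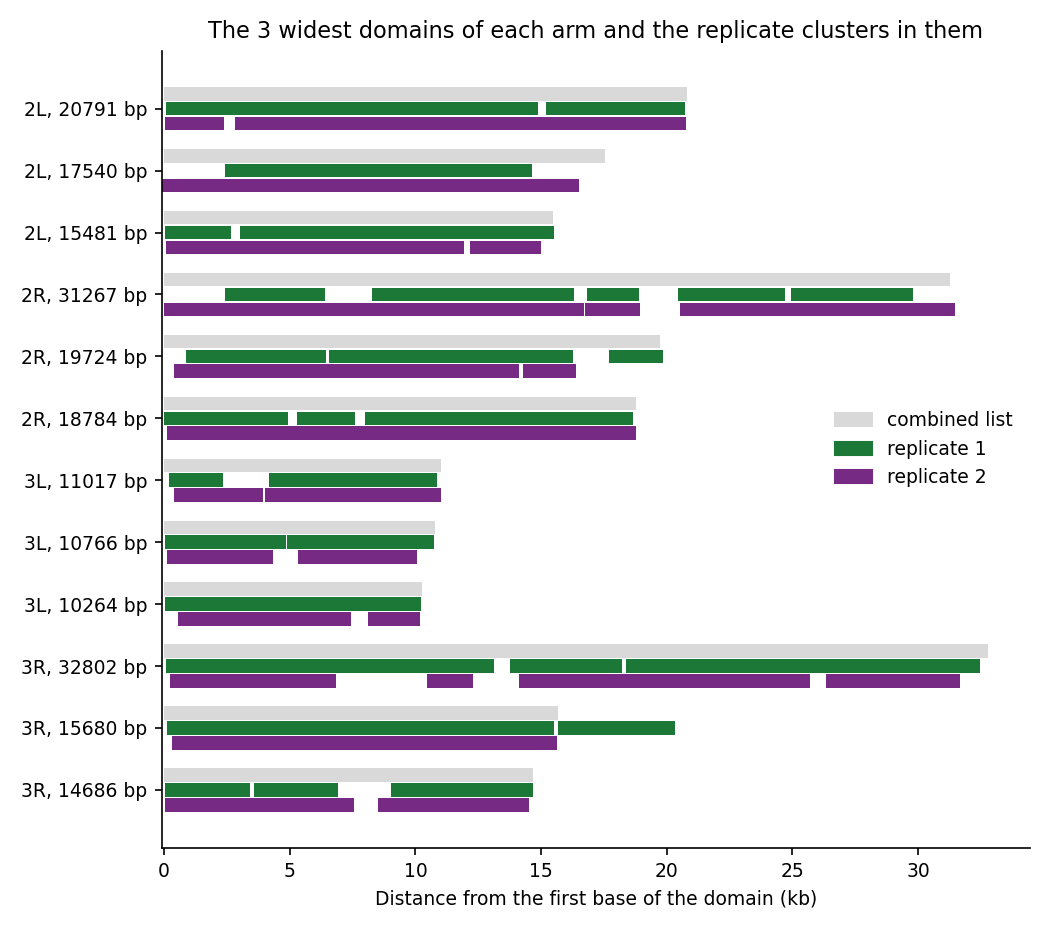
Clusters of replicate 1 (green) and replicate 2 (purple) under the 3 widest domains of each arm (grey, from the combined list), drawn against distance in kb from the first base of the domain. Each row is labelled with its arm and width. The 2R domain of 18784 bp is 1 cluster in replicate 2 and 3 in replicate 1, and the 3R domain of 32802 bp is 3 clusters in replicate 1 and 4 in replicate 2.

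Domains differed in number between the arms, and 2R had the most. It held 73, or 3.45 per Mb, covering 3.24% of the arm. There were 54 on 2L (2.35 per Mb, 1.94% covered), 59 on 3L (2.40 per Mb, 1.81%) and 50 on 3R (1.79 per Mb, 1.51%). Domains made up 6.69% of the reproducible clusters of 2R, 5.81% on 2L, 5.74% on 3L and 3.97% on 3R. The median width was 8083 bp on 2R, 7318 bp on 2L, 7105 bp on 3L and 7056 bp on 3R. In each replicate's own list 2R also had the most clusters of at least 6000 bp per Mb, with 1.66 in replicate 1 and 1.84 in replicate 2. In both, 2L came next, with 1.26 per Mb in replicate 1 and 1.22 in replicate 2. The densities on 3L and 3R were 1.18 each in replicate 1, and 0.77 on 3L and 0.93 on 3R in replicate 2. Median combined scores by arm ranged from 0.91 on 3L to 1.05 on 2L. The X had 134 reproducible clusters of this width, 5.98 per Mb and 13.1% of its reproducible clusters, with a median combined score of 1.07, and chromosome 4 had 38, which were 54.3% of its 70 reproducible clusters.

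Near the centromere, domains made up a larger part of the clusters than farther out. They were 15.0% of the reproducible clusters within 2 Mb of the centromere-proximal end, a distance chosen after the data were seen, and 0.83 to 7.58% in the other bins of 2 Mb. On that side the autosomal arms run into pericentric heterochromatin, which is rich in repeats. How much of it lies within the 2 Mb on each arm is not given here. Within 2 Mb of that end of the 4 arms lay 41 domains (17.4%) and 233 narrower clusters (5.72%), where 6.36% of all reproducible clusters lay, and this sequence is 8.28% of the arms. There were 5.13 domains and 29.1 narrower clusters per Mb, against 0.39 to 3.50 domains and 32.0 to 48.5 narrower clusters per Mb in the other bins of 2 Mb. Of the 40 domains of at least 10000 bp, 16 lay there, most of them on 2R. The arms were not alike. The share of domains within 2 Mb was 30.1% on 2R (22 of 73), 16.7% on 2L (9 of 54), 8.47% on 3L (5 of 59) and 10.0% on 3R (5 of 50). The share of narrower clusters was 5.11% on 2R, 5.02% on 2L, 2.99% on 3L and 8.92% on 3R, so that on 3R the 2 shares were close. Without 2R the share of domains was 11.7%. Pooled over the 4 arms, domains within 2 Mb had a median width of 8890 bp, against 7151 bp for the 195 farther out.

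**Figure D4:**
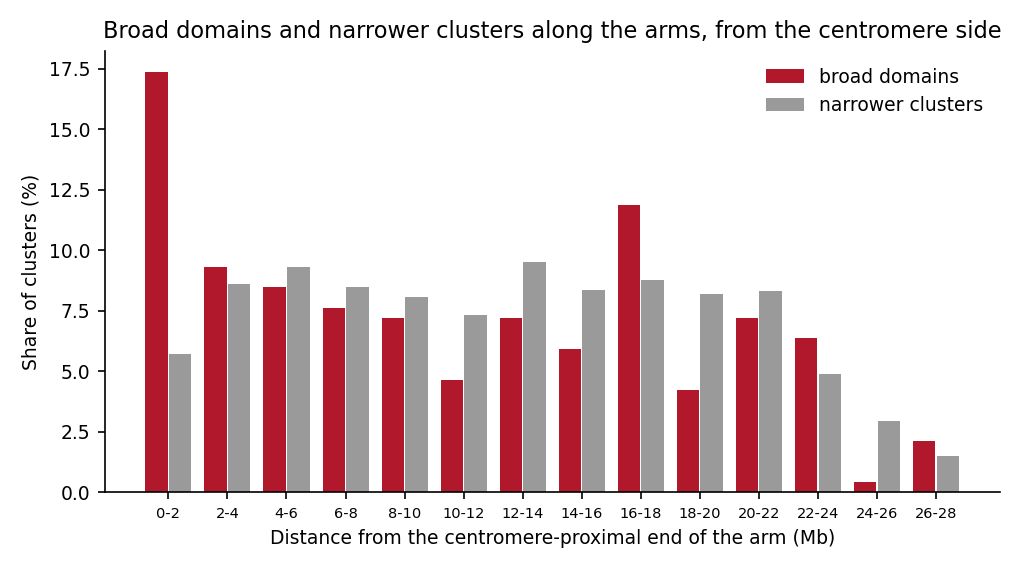
Share (%) of the 236 broad domains (red) and of the 4074 narrower clusters (grey) in bins of 2 Mb by distance from the centromere-proximal end of the assembled arm, over 2L, 2R, 3L and 3R. The first bin holds 17.4% of the domains and 5.72% of the narrower clusters. Bins beyond 20 Mb hold less sequence, since the arms differ in length.

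The replicates also parted there. Of the 41 domains within 2 Mb, 30 were covered more by replicate 2 and 27 scored higher in it. Replicate 1 scored higher at 34.1% of the domains and 51.1% of the narrower clusters within 2 Mb, against 75.9% of the domains and 60.8% of the narrower clusters farther out, so the narrower clusters shifted the same way. Replicate 1 covered 73.4% of these domains' length and replicate 2 covered 88.5%, with 18.9% in replicate 2 only and 3.87% in replicate 1 only. The mean score difference, replicate 1 minus replicate 2, was -0.075 ± 0.18 (SD between 41 domains). In the 195 domains farther out it was 0.10 ± 0.14, and 123 of these (63.1%) were covered more by replicate 1, close to the 58.0% of narrower clusters there. Of the narrower clusters within 2 Mb, replicate 1 covered 85.8% of the length and replicate 2 covered 87.3%, and farther out replicate 1 covered 90.5% and replicate 2 covered 87.9%. Whether the shift differs between domains and narrower clusters was not tested. By arm, replicate 1 and replicate 2 covered 70.7% and 88.4% of these domains' length on 2R, 77.8% and 88.2% on 2L, 67.4% and 92.1% on 3L, and 91.7% and 84.9% on 3R. Replicate 2 scored higher at 16 of 22 of these domains on 2R, 6 of 9 on 2L, 3 of 5 on 3L and 2 of 5 on 3R. Each list was taken to be scaled by a constant of its own, which would shift every score difference alike. The cause of the contrast between near and far was not tested. In the replicates' own lists, 18 of 126 clusters of at least 6000 bp lay within 2 Mb in replicate 1 (14.3%) and 27 of 112 in replicate 2 (24.1%). Among narrower clusters of these lists that overlap the other list, the shares were 6.55% in replicate 1 and 6.10% in replicate 2. On 3R the wide clusters within 2 Mb were 3 of 33 in replicate 1 and 0 of 26 in replicate 2. The shares of narrower clusters on 3R were 9.03% in replicate 1 and 9.32% in replicate 2. The share of wide clusters near the centromere thus differed between the 2 replicates' lists. Whether it differed beyond counting error was not tested, nor was the part of replicate 2 in the combined list's share.

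Over all 236 domains the scores of the replicates were close. Replicate 1 minus replicate 2 averaged 0.070 ± 0.16 (SD between domains), Spearman's rho was 0.838 and Pearson's r 0.828 across the 236 domains, which share the libraries, and 162 domains (68.6%) scored higher in replicate 1, where 60.7% of all reproducible clusters did. With the median difference of 0.042 over the 4310 clusters subtracted, 141 domains (59.7%) did, against 49.4% of narrower clusters. The widest differences were a domain at 1217364 to 1234521 on 2R, with 1.22 in replicate 1 and 1.75 in replicate 2, and 1 at 18748270 to 18754918 on 3L, with 1.10 in replicate 1 and 0.52 in replicate 2. At the first of these the score of 1.75 came from a cluster of 1824 bp at 1232700 to 1234523, and the last cluster of replicate 1 ended at 1232875. Replicate 1 was higher at 11496636 to 11503118 on 2R, with 1.52 in replicate 1 and 1.04 in replicate 2, and at 20092081 to 20100117 on 3L, with 1.56 in replicate 1 and 1.09 in replicate 2.

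**Figure D5:**
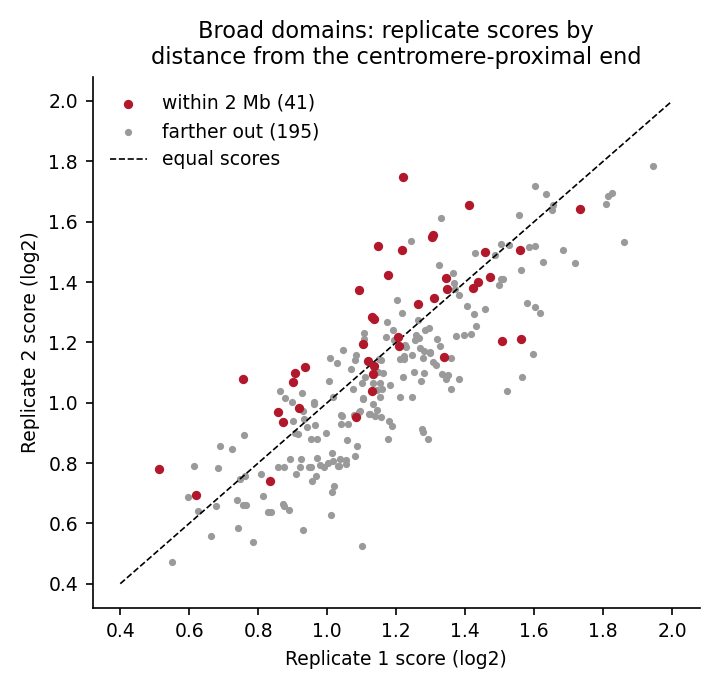
Score (log2) in replicate 1 (horizontal) against replicate 2 (vertical) for the 236 broad domains, each point being 1 domain and the score that of its highest-scoring cluster in the replicate. Red points are the 41 domains within 2 Mb of the centromere-proximal end and grey points the 195 farther out, and the dashed line marks equal scores. Of the red points, 27 lie above the line, and 148 of the grey points lie below it.

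Broad domains were mostly far apart, with some close groups. The gap to the next domain on the arm had a median of 241 kb (quartiles 74.4 and 549 kb). For 111 domains (47.0%) another lay within 100 kb, and for 43 (18.2%) within 10 kb. Narrower clusters surrounded them. The nearest reproducible cluster of any width was a median of 2870 bp away, against 3547 bp for narrower clusters, and 194 domains (82.2%) and 3148 narrower clusters (77.3%) had 1 within 10 kb. Joined at gaps under 100 kb, the domains formed 125 single domains, 30 pairs and 13 longer runs that held 51 domains.

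The longest run had 9 domains, on 2R at 971881 to 1306559. It spanned 335 kb, and the domains, 7370 to 31267 bp wide, filled 38.8% of it. Summed over the 9 domains, each replicate's list had 18 clusters, where a cluster that reaches 2 domains counts in each. Replicate 1 covered 64.0% of the domains' length and replicate 2 covered 89.6%, more in 8 of the 9. The exception was the domain at 1135431 to 1155154, with 87.6% in replicate 1 and 80.3% in replicate 2. At 1295125 to 1306559 replicate 1 covered 27.1% and replicate 2 covered 63.6%, and at 1043397 to 1050766 replicate 1 covered 26.8% and replicate 2 covered 91.7%. Scores were higher in replicate 2 at 6 of the 9. The closest pair of all lay in this run, at 1235033 to 1246477 and 1246479 to 1255979, with 1 bp between them. Replicate 1 covered 45.1% and 54.9% of the pair, and replicate 2 covered 95.6% and 85.2%. Another pair on 2R, at 708881 to 718575 and 718647 to 727028, lay 71 bp apart.

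A run of 5 domains on 3L, at 538956 to 713430, showed the opposite order of coverage. Its 5 domains, 6164 to 10159 bp wide, were covered to 92.6% by replicate 1 and 77.6% by replicate 2, with replicate 2 covering more in 1 of the 5. The last of them, at 707171 to 713430, had scores of 1.81 for replicate 1 and 1.69 for replicate 2. The first, at 538956 to 547094, had 1.43 for replicate 1 and 1.50 for replicate 2.

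Counts by windows of 1 Mb ranged from 0 to 11 domains, and were not compared with an even placement. Of 95 full windows, 11 had no domain and the median window had 2. Of the 4 shorter windows at the arm ends, 2 had none. The fullest were the first 2 windows of 2R, with 11 domains each, in which domains took up 10.9% and 16.0% of the sequence. The first window of 2L followed with 8, tied with the window of 2L at 22000001 to 23000000. The longest stretch of each arm without a domain was 3.17 Mb on 3R (23101961 to 26274945), 1.90 Mb on 2L (9898683 to 11803532), 1.71 Mb on 3L (5638018 to 7347335) and 1.50 Mb on 2R (14699959 to 16197792). Sfmbt clusters were still present there. The stretch on 3R held 126 narrower clusters with a median score of 0.73, the widest of them 5977 bp, and that on 3L held 64, of which 1 scored 2.53.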

How the data were processed

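Sfmbt ChIP-seq of adult heads gave 1 list of enriched clusters per ChIP replicate and 1 combined list. Reads were aligned with Bowtie 0.12.7, per the submitters' processing notes, and per the file headers positions are in FlyBase release 5. How the authors called peaks, at what threshold, and how they merged the replicates is not given in the sources used here. A caller's rule for joining neighbouring windows sets both widths and breaks. No header or label names the unit of the scores. The authors' deposited scores were taken as log2 values of a ratio scaled by 1 constant per list, because as powers of 2 they were ratios of whole numbers up to 3000 for 98.1% of combined, 99.1% of replicate 1 and 98.8% of replicate 2 clusters (relative tolerance 1e-11).

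Lists were used as deposited. A replicate's score for a domain is that of its highest-scoring overlapping cluster, and a domain overlapped by 2 or more clusters is called split. Arm lengths are from the file headers. Intervals are 95% exact (Clopper-Pearson). Regions named are the 3 widest of each arm, the 5 highest and lowest scores, the 5 with most clusters or the largest replicate difference, the 3 closest pairs, the fullest windows, the longest empty stretch of each arm and those beside the width minimum, along with the longest runs, added later. Members and lists were chosen with earlier results of these data known. Overlap counting was tested on simulated data. Computation used matplotlib 3.10.9, SciPy 1.17.1, pandas 2.3.3, NumPy 2.4.6 and Python 3.11.15.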

Additional observations from a re-analysis of the deposited data

How the results depend on the processing

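Requiring 500 bp of overlap moved none of the 13 results followed beyond the margin set for it. The margin was a set ratio for the number of domains and a binomial interval for shares of domains and the median width. For the score differences between replicates and the proximal coverage difference it was the SD between domains, which is wide. For the others it was the spread between replicates. All domains overlap both replicates, so leaving out either replicate's requirement changed only the difference in median score between domains and narrower clusters. It was then 0.32 to 0.34, against 0.28. No paired analysis was possible because the lists hold 1 group, 2 ChIP samples, with no other group to pair it with.

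The number of domains depended on the minimum width and on joining. There were 460 at 5000 bp, 89 at 8000 bp and 382 with clusters under 500 bp apart joined. They covered 3.33%, 1.03% and 3.40% of the arms. Medians were 6082 bp at 5000 bp and 9501 bp at 8000 bp. At 5000 and 8000 bp, exactly 1 cluster of replicate 1 overlapped 70.9% and 44.9% of domains, and exactly 1 of replicate 2 overlapped 65.9% and 42.7%. At 8000 bp replicate 1 covered 85.0% and replicate 2 covered 89.3% of the length, and with joining 82.6% by replicate 1 and 82.7% by replicate 2. The score difference was 0.24, 0.37 and, with joining, 0.18. Another domain lay within 100 kb for 68.5%, 32.6% and 63.6%, and within 50 kb for 37.7%.

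With only scores at or above the combined median, domains covered 1.99% of the arms and the score difference was 0.14. The replicates' own lists had 126 such clusters in replicate 1, covering 1.01%, and 112 in replicate 2, covering 0.97%, with another within 100 kb for 29.4% in replicate 1 and 29.5% in replicate 2. Median width was 7100 bp in replicate 1.

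The settings for the share of domains within 2 Mb of the centromere-proximal end were chosen after seeing the data. It was 29.2% at 8000 bp, 10.6% within 1 Mb, 11.7% without 2R and 24.1% in replicate 2's own list. The negative score difference and the lower coverage of replicate 1 there kept their sign in every setting run on the combined list. Both were smaller without 2R. The score difference was then -0.031, against -0.075, and the coverage difference -10.5 percentage points, against -15.1. In its own wide clusters each replicate covers all by construction. Depth is unknown, so no limit of detection is given.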
